A study of Salmo salar with 51 samples.

Results

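The step between 15 and 20 days post fertilization (dpf) was examined in whole Atlantic salmon embryos (Salmo salar, strain McConnell (Mowi)). The 3 arrays of individuals sampled at 20 dpf were set against the 3 arrays of individuals sampled at 15 dpf. They belong to a series of 51 arrays that follows untreated fish, reared in fresh water at a constant temperature, over 17 time points between 2 and 89 dpf. The study's staging places both days in the period when vessels grow over the yolk sac, and the labels give no difference between the groups other than age. The arrays of the 2 ages lay on different slides, except for 1 of each age that shared a slide. Each array compared the Cy5-labelled cRNA of an individual with a Cy3-labelled pool of all time points. Ratios were normalized within each array, so a log2 ratio of 0 means the typical ratio for spots of that brightness on it. It need not mean a level equal to that of the pool. Of the 43689 probes of the array, 12396 were taken as measured in this step, because their Cy5 signal was at least 500 and unflagged on all 3 arrays of 20 dpf or on all 3 arrays of 15 dpf, and 12395 of them had a ratio at both ages. The embryos were homogenized whole. More cells of a type and more RNA per cell therefore cannot be told apart, and no value below belongs to a single tissue.

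The salmon embryo makes its first red blood cells before it hatches, and oxygen carriage depends on hemoglobin, on the heme made for it in the mitochondria, and on membrane proteins that move bicarbonate, carbon dioxide and ammonium. The rate of heme production in red cells is set by an erythroid form of 5-aminolevulinate synthase. The lens forms at the same stage of life from cells that fill with crystallins and lose their organelles, and neurons extend processes rich in tubulin and its binding proteins. Gene names are those that the study's annotation gives to a probe. They exist only for probes that had been found changed in some comparison on these same arrays, so counts over named probes are not independent of these data. Of the measured probes, 3168 had such a name. Salmonids carry many duplicated genes, and probes of the same name were kept apart because they may measure different copies. They may also read the same transcript, since the paper states that a part of the oligos shared a contig with another oligo. Counts of probes below are therefore not counts of genes.

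Some arrays stood apart before any comparison was made. The median Cy5 signal was 210.0, 251.0 and 601.0 on the arrays of 20 dpf and 261.0, 307.5 and 467.0 on those of 15 dpf. The brightest of them, replicate 3 of 20 dpf, had 1093 probes at or above 60000, where the scanner saturates, and most of these were flagged and left out on that array. Replicate 1 of 15 dpf had log2 ratios that depended on where a spot lay. Relative to the mean of each probe over all 51 arrays, its ratios had a median of 0.79 in spot columns 201 to 266 and of -0.29 in columns 1 to 160, a gap of 1.09 that none of the other arrays reached. On the other 5 arrays of this step the gap lay between -0.29 and 0.22. The spread between arrays of an age was also wide. The mean SD per probe was 0.491 at 20 dpf and 0.495 at 15 dpf, with a median of 0.404 over the 17 time points. Each individual had 1 array, so spread between individuals and spread between arrays cannot be told apart. These arrays also did not group by age alone. The root-mean-square log2 distance of replicate 3 of 20 dpf was 0.741 to replicate 3 of 15 dpf. It was 0.872 and 0.918 to replicates 1 and 2 of 20 dpf. The shortest distances were within an age, at 0.596 (replicates 2 and 3 of 15 dpf) and 0.686 (replicates 1 and 2 of 20 dpf).

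**Figure D1:**
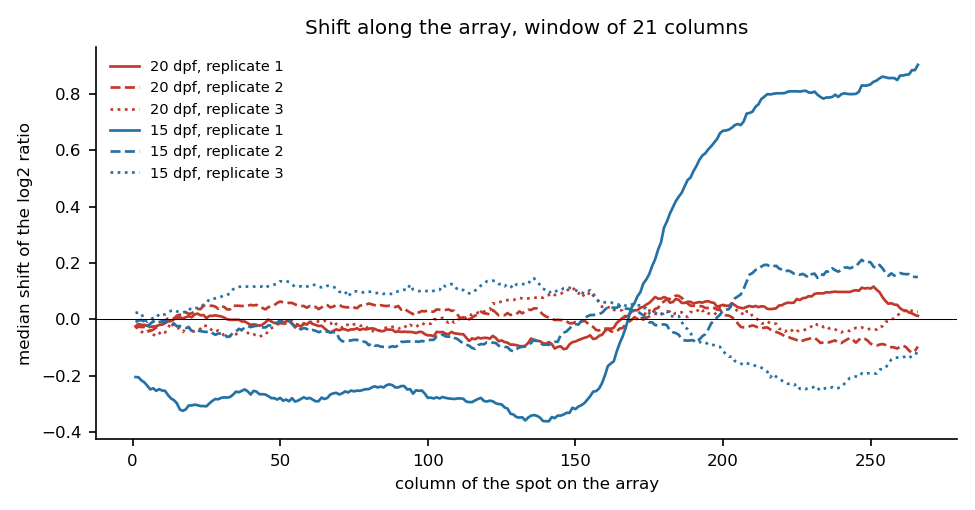
Median shift of the log2 ratio (y axis, log2 units) in a moving window of 21 spot columns (x axis, column of the spot on the array) for the 3 arrays of 20 dpf (red) and the 3 arrays of 15 dpf (blue), relative to each probe's mean over 51 arrays and to the array's own median. The line of 15 dpf replicate 1 climbs across columns 160 to 200, while the other 5 arrays stay nearer to 0.

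Almost all of the probes called in this step were rises. Of the 12395 measured probes, 255 (2.06%, against 1.43% of all tested probes) were called, at an adjusted p under 0.05 and a change of at least 2-fold, and 240 of these were higher at 20 dpf and 15 lower. Probes called higher were thus 1.94% of the measured probes, against 1.32% of the 20916 probes of the whole array that were tested, and probes called lower were 0.121%, against 0.110%. The median log2 change was 1.80 among the rises and -1.47 among the falls, and 0.01 over all measured probes. In 249 of the 255 called probes the values of the 2 ages did not overlap, which was so for 12.4% of the measured probes, 8.31% with 20 dpf above and the rest with 20 dpf below. The methods ask for a 2-fold change and an unadjusted p no larger than 0.01, and 484 measured probes (3.90%) met that with limma's p, 404 of them higher and 80 lower at 20 dpf, against 3.23% of all tested probes. A description was at hand for 108 of the rises and 6 of the falls.

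The calls were spread unevenly over the classes that the signal rule makes. At both ages, 8757 probes reached a signal of 500, and 107 of them were called higher (1.22%) and 4 lower. A further 1621 reached it at 20 dpf only, of which 111 were called higher and 0 lower. Among the 2017 that met it at 15 dpf only, 11 were called lower and 22 higher. On all 22 a spot was flagged at 20 dpf, and 21 of them were flagged and saturated on replicate 3 of 20 dpf. The probe closest inside the threshold had a lowest signal of exactly 500 on the 3 arrays that admitted it, and the closest outside had 499.5. The calls also rest on the spread that was pooled over all 17 time points: with limma on the 6 arrays alone, 43 probes were called and all of them were higher at 20 dpf. The mean SD at both ages lay above the median of the 17 time points. The SEs and p-values given below, from the pooled fit, may therefore understate the spread of these 6 embryos. With a correction for spot column, chosen after the shift had been seen, 322 were called and 95.3% of them were higher.

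**Figure D2:**
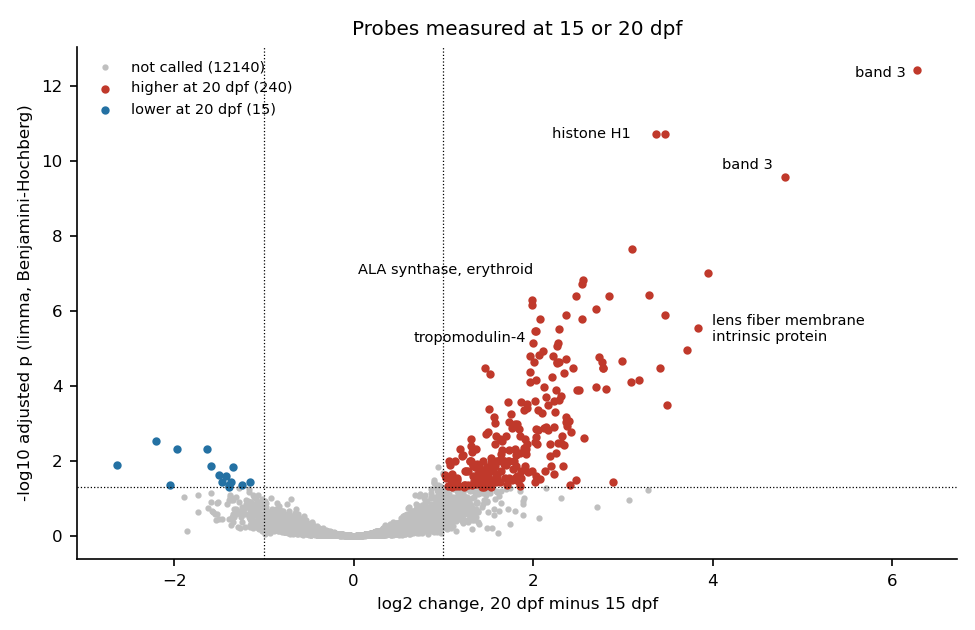
Log2 change from limma, 20 dpf minus 15 dpf (x axis), against the -log10 of the adjusted p (y axis) for the 12395 probes measured at 20 or 15 dpf, with dotted lines at the thresholds. The 240 probes called higher at 20 dpf (red) reach a log2 change of 6.28 for band 3, while the 15 called lower (blue) all lie below an adjusted-p height of 3.

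Genes of the red cell membrane held the steepest rise. Band 3 anion exchange protein, which swaps chloride for bicarbonate across the red cell membrane, had log2 ratios of 2.83, 2.94 and 2.30 at 20 dpf, against -2.75, -3.18 and -4.84 at 15 dpf (probe C136R119). The lowest ratio of 20 dpf was thus more than 5 log2 units above the highest of 15 dpf. Its Cy5 signal was 19926, 15825 and 44645 at 20 dpf and 289.5, 358.0 and 228.0 at 15 dpf. All 3 signals of 15 dpf lay under 500, so the change is given as a bound. The mean normalized signal of 20 dpf was set against the lowest unflagged signal of at least 500 on each 15 dpf array, and this gave at least 56.6-fold higher, with a fitted log2 change of 6.28 (SE 0.44, adjusted p = 3.7e-13). A second band 3 probe, C259R152, had ratios of 3.14, 2.85 and 2.93 at 20 dpf and -0.65, -1.77 and -3.07 at 15 dpf, and was at least 25.0-fold higher.

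Rhesus blood group-associated glycoprotein, a channel of the red cell membrane for ammonium and carbon dioxide, was measured by 3 probes. C227R072 had log2 ratios of 2.38, 1.58 and 2.63 at 20 dpf and 0.03, -0.03 and -0.69 at 15 dpf, a rise of 2.43 (SE 0.47, adjusted p = 0.0017). C191R064 rose by 1.82 (adjusted p = 0.00103), while C217R069, with a change of 0.73, did not pass (adjusted p = 0.392). The differences between the 3 probes were not tested. With the correction for spot column C217R069 changed by 1.0 (adjusted p = 0.0315). The probe that missed the threshold had the highest ratios of the 3 at 15 dpf, at 1.13, 0.88 and 0.91.

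Mitoferrin-1, which carries iron into the mitochondrion, had ratios of 2.77, 1.43 and 2.04 at 20 dpf and -0.71, -0.03 and -0.55 at 15 dpf (C066R044, log2 change 2.51, SE 0.41, adjusted p = 1.27e-04). Carbonic anhydrase, which interconverts carbon dioxide and bicarbonate, had 1.47, 1.22 and 1.93 at 20 dpf and -0.42, -0.66 and -0.51 at 15 dpf, a rise of 2.07 (C168R153, adjusted p = 1.51e-05). Ankyrin-1, which ties band 3 to the spectrin skeleton, rose by 1.93 (C034R111, adjusted p = 3.1e-04). The groups did not overlap for any of these probes. Of the 10 measured probes in the list of red cell membrane, iron and gas transport genes, 7 were called higher and none lower, with a list median of 2.00. Of the 6 that met the signal rule at both ages, 3 were called higher. Over all described probes 3.41% were called higher, and 2.06% over those not named from the study's list for this step. Both shares also stand beside the counts of each gene list below. Of the 7 rises, 6 were in the study's list for this step. Among the 4 measured probes outside it 1 was called, and their median was 0.94. The 3 that were not called were C217R069, transferrin receptor protein 1 (change 1.14, adjusted p = 0.281) and the 55 kDa erythrocyte membrane protein (change -0.48, adjusted p = 0.721).

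Heme synthesis rose at its first enzyme. All 5 probes for erythroid-specific 5-aminolevulinate synthase were called higher, with log2 changes between 2.27 and 2.70. For C088R086 the ratios were 0.56 and 0.41 at 20 dpf and -2.31, -1.91 and -1.99 at 15 dpf, a change of 2.56 (SE 0.29, adjusted p = 1.52e-07). Replicate 3 of 20 dpf gave no ratio for any of the 5 probes: their signals there lay between 64666 and 64966, were flagged, and were dropped from the fit. With flagged spots kept the 5 changes lay between 2.56 and 3.05. Few probes of the later steps passed. Uroporphyrinogen-III synthase, which closes the ring, was called on 1 of 3 probes (C184R069, change 1.45, adjusted p = 0.0272), and its ratio of 2.03 on replicate 3 of 20 dpf stood above the 0.13 and 0.55 of the other embryos of that age. Without that array the change was 0.89 (adjusted p = 0.315), and the call was also lost without replicate 1 or 2 of 15 dpf (changes of 1.32 and 1.49, adjusted p = 0.134 and 0.0696).

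No other enzyme of the pathway passed the threshold in the main fit. Delta-aminolevulinic acid dehydratase, the second enzyme, changed by 0.70, 0.40 and 0.26 on its 3 probes, and porphobilinogen deaminase, the next, by 0.58. Uroporphyrinogen decarboxylase changed by 1.00 and 0.44 and coproporphyrinogen III oxidase by -0.35. Over the 15 measured probes of the list, 6 were called higher, none was called lower and the median was 1.26. Among the 12 outside the study's list for this step 3 were called, with a median of 0.85. Ferrochelatase, which inserts the iron, was too dim to be tested.

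Among the globins, hemoglobin subunit alpha-D rose on both of its probes. C062R154 had ratios of 1.64, 2.03 and 2.31 at 20 dpf and -0.44, 0.61 and -0.21 at 15 dpf, a log2 change of 2.01 (SE 0.30, adjusted p = 2.29e-05). C225R074 changed by 1.85 (adjusted p = 0.00603), a call that was lost without replicate 3 of 15 dpf (change 1.42, adjusted p = 0.088) or replicate 3 of 20 dpf (change 1.61, adjusted p = 0.0564). Hemoglobin subunit alpha changed by 1.29 (C057R153, adjusted p = 0.193), with -0.01, 0.77 and -0.27 at 20 dpf and -2.0, -1.5 and 0.11 at 15 dpf, so that the groups overlapped. Hemoglobin subunit alpha-4 changed by -0.16 (adjusted p = 0.953). Of the 6 probes named as globins, 4 were measured in this step and 2 of these were called higher. Both others, for beta chains, missed the signal rule, and the one for beta-4 had a fitted change of 1.84 (C021R112, adjusted p = 0.00146) with a signal of 484.5 on 1 array of 20 dpf.

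The receptor for erythropoietin, the hormone that drives red cell production, had ratios of 1.68, 1.19 and 1.94 at 20 dpf and -0.88, -0.19 and -0.21 at 15 dpf (C031R061, log2 change 2.03, SE 0.35, adjusted p = 2.58e-04). Transcription factors that specify blood were not called. T-cell acute lymphocytic leukemia protein 1 changed by 0.86 (adjusted p = 0.464) and rhombotin-2 by 0.18 and -0.18 on its 2 probes (adjusted p = 0.937 and 0.924). Over the 4 red cell lists, 40 probes had such a name, 33 were measured and 16 of these were called higher and none lower. Of the 23 that did not take their name from the study's list for this step, 6 were called. In turn, 21 of the 33 reached the signal threshold at both ages, and 6 of those were called higher. Leaving out each of the 6 arrays in turn kept 14 of the 16 calls, and 8 of the 16 held with limma on the 6 arrays alone. The erythropoietin receptor probe (adjusted p = 0.0561) and hemoglobin probe C062R154 (adjusted p = 0.069) were among those that did not hold there.

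**Figure D3:**
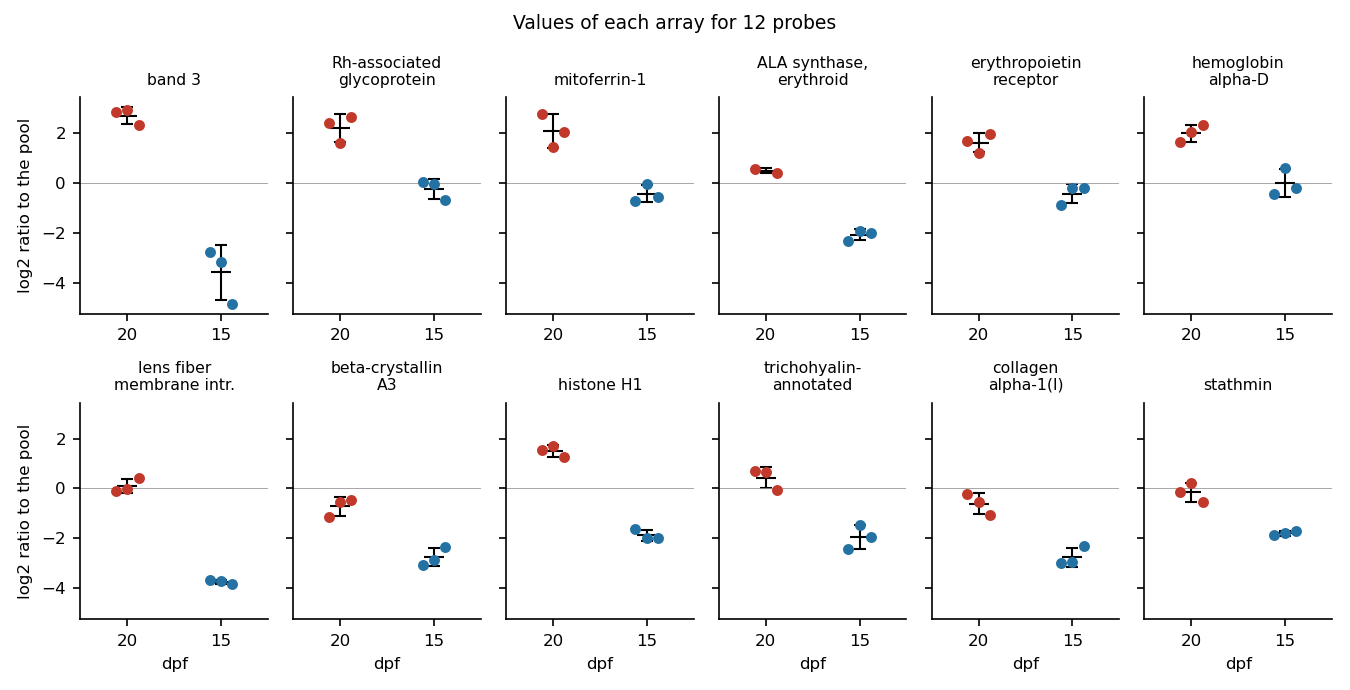
Log2 ratio to the reference pool (y axis) of each array at 20 dpf (red, left) and 15 dpf (blue, right) for 12 probes, with the mean and SD in black. The points of the 2 ages do not overlap in any panel, and 5-aminolevulinate synthase (ALA synthase) has 2 points at 20 dpf because replicate 3 was saturated.

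Of the 13 measured lens probes, 11 were called higher and none lower, and the log2 changes of all 13 lay between 0.84 and 3.84, with a median of 1.93. Lens fiber membrane intrinsic protein, a protein of fiber cell junctions, had ratios of -0.10, -0.02 and 0.40 at 20 dpf and -3.67, -3.71 and -3.84 at 15 dpf (C249R030). Its signal was 121.0, 182.0 and 311.5 at 15 dpf, and it was at least 5.70-fold higher at 20 dpf (fitted log2 change 3.84, adjusted p = 2.89e-06). This probe lies in the columns where 15 dpf replicate 1 read high, and with the correction for spot column its change was 4.12 (adjusted p = 1.51e-07). A second probe of that name rose by 2.05 (C114R010, adjusted p = 4.38e-04), and the last, with a change of 1.21, did not pass (C071R111, adjusted p = 0.323).

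The crystallins are the soluble proteins that give the lens its refraction. Beta-crystallin A3 had ratios of -1.14, -0.56 and -0.45 at 20 dpf and -3.06, -2.85 and -2.33 at 15 dpf, a log2 change of 2.03 (C143R104, SE 0.32, adjusted p = 6.94e-05). Gamma-crystallin M3 rose on 3 probes, by 2.23, 1.94 and 1.83, and on C148R142 the ratios were -2.35, -1.01 and -1.25 at 20 dpf and -3.42, -3.91 and -3.97 at 15 dpf. On all 3 probes replicate 1 was the lowest embryo of 20 dpf. The rise of 1.94 (C026R138) lost its call without replicate 2 of 20 dpf (1.68, adjusted p = 0.0508), and that of 1.83 (C012R113) without replicate 1 or 2 of 15 dpf or replicate 2 or 3 of 20 dpf (adjusted p between 0.122 and 0.175). Beta-crystallin S-1 rose by 2.34 (C126R046, adjusted p = 4.44e-05), and gamma-crystallin M2, with a change of 0.84 on its measured probe, was not called (adjusted p = 0.237). Alpha-crystallin B chain, which other tissues also make, was dim at both ages. Outside the study's list for this step, 7 of 9 measured lens probes were called, with a median of 1.57. Of the 8 lens probes that met the signal rule at both ages, 6 were called. Without each array in turn, between 7 and 11 lens probes were called, the fewest without replicate 2 of 20 dpf, and 1 was called with limma on the 6 arrays.

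A group of probes annotated as trichohyalin, after a structural protein of mammalian hair follicles, moved together. All 9 measured probes were called higher, by 1.77 to 2.37 on the log2 scale. C055R083 had ratios of 0.69, 0.66 and -0.06 at 20 dpf and -2.42, -1.46 and -1.95 at 15 dpf (log2 change 2.37, SE 0.35, adjusted p = 1.95e-05). Replicate 3 was the lowest of the 20 dpf embryos on all 9. The 9 probes may report few transcripts, since they share a name and a profile, and 6 of them were in the study's list for this step. Leaving out each array in turn kept 6 of the 9 calls. C030R030 lost its call without replicate 3 of 15 dpf (1.62, adjusted p = 0.0552), C101R158 without replicate 3 of 15 dpf or replicate 1 or 2 of 20 dpf (adjusted p between 0.0526 and 0.0637), and C256R064 without replicate 2 or 3 of 15 dpf or replicate 1 or 2 of 20 dpf (adjusted p between 0.0713 and 0.221). With limma on the 6 arrays 4 of the 9 were called.

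Linker histone H1, which binds the DNA between nucleosomes, was called higher on 4 of 12 measured probes and lower on none. Of the 9 that met the signal rule at both ages, 1 was called, and 1 was called of the 9 outside the study's list for this step. C075R038 had ratios of 1.55, 1.70 and 1.26 at 20 dpf and -1.61, -2.0 and -1.99 at 15 dpf (log2 change 3.37, SE 0.27, adjusted p = 1.83e-11). The other 2 probes named histone H1 without a subtype rose by 2.81 (C148R053) and 2.73 (C073R129). The 9 probes named H1.0, H1.0-B or H1x changed by 0.44 to 1.06. One of these, C014R020 for H1.0, was called at a change of 1.06 (adjusted p = 0.0101), and it was lost without replicate 1 of 15 dpf (change 0.98, adjusted p = 0.0614) or replicate 2 of 20 dpf (change 0.91, adjusted p = 0.102). With the correction for spot column its change was 0.98, under 2-fold.

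**Figure D4:**
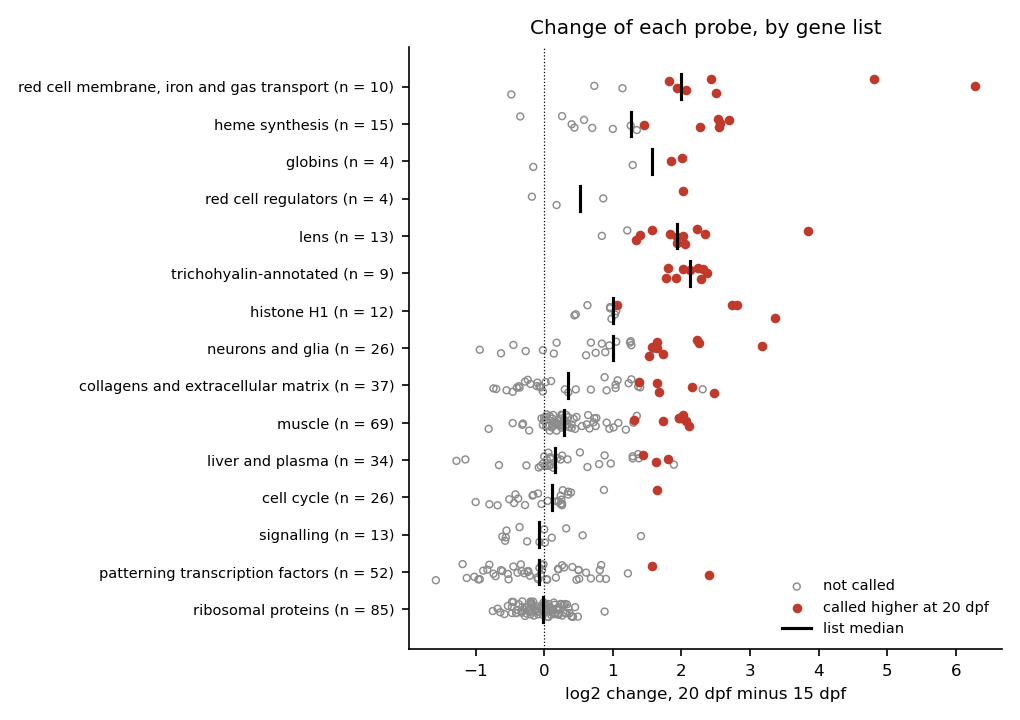
Log2 change from limma, 20 dpf minus 15 dpf (x axis), of each measured probe in 15 gene lists, one point per probe, with called probes filled in red and the list median as a black bar. The medians of the lens and trichohyalin-annotated lists are 1.93 and 2.13, or 1.57 and 1.81 without probes from the study's list for this step. The ribosomal protein median is -0.02, with 0 probes from that list.

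Neuronal and glial genes rose in part. Of 26 measured probes, 8 were called higher and none lower, with a list median of 1.00. Outside the study's list for this step 2 of 15 were called, with a median of 0.61. Of the 15 that met the signal rule at both ages, 3 were called. Tubulin beta-6 chain had ratios of 1.42, 0.86 and 2.49 at 20 dpf and -2.36, -0.75 and -1.66 at 15 dpf (C114R057, log2 change 3.18, SE 0.50, adjusted p = 6.94e-05). The place of this tubulin in a neuronal list rests on the name alone. Its other probe, C211R149, changed by 2.23 (adjusted p = 0.0225), a call that was lost without replicate 1 or 3 of 15 dpf or replicate 1 or 3 of 20 dpf (adjusted p between 0.0693 and 0.129).

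Among genes of growing neurites, dihydropyrimidinase-related protein 3 had ratios of 0.67, 0.70 and 0.05 at 20 dpf and -1.25, -1.31 and -1.19 at 15 dpf (C175R107, log2 change 1.73, SE 0.30, adjusted p = 2.65e-04). Stathmin, which destabilizes microtubules, had -0.13, 0.23 and -0.53 at 20 dpf and -1.88, -1.80 and -1.69 at 15 dpf (C169R101, 1.65, adjusted p = 0.00303). The 15 dpf embryos lay close together for both genes, and no embryo of 20 dpf fell among them. Reticulon-1, a protein of the endoplasmic reticulum of neurons, rose by 1.52 (C006R051, adjusted p = 4.75e-05), and leucine-rich glioma-inactivated protein 1, secreted at synapses, by 1.64 (C111R164, adjusted p = 0.00259). Proteolipid protein DM beta, a relative of the main myelin protein, rose by 2.25 (C088R017, adjusted p = 0.00615), though with the slide as a fixed block its adjusted p was 0.118. Neuromodulin and microtubule-associated protein tau, markers of axons, changed by 1.26 and 1.27 and did not pass (adjusted p = 0.239 and 0.0566). At the other end, synaptic vesicle glycoprotein 2B changed by -0.27 (adjusted p = 0.852) and myelin-oligodendrocyte glycoprotein by -0.94 (adjusted p = 0.277).

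Of 37 measured probes for collagens and other matrix genes, 5 were called higher and none lower, and 15 had a negative change, with a list median of 0.35. Of the 24 that met the signal rule at both ages 2 were called. Of the 33 outside the study's list for this step 2 were called, with a median of 0.10 over these 33. Laminin subunit beta-4, a chain of the basement membrane, had ratios of 0.31, -0.40 and -0.30 at 20 dpf and -2.69, -2.36 and -2.79 at 15 dpf, was under 500 in signal on every 15 dpf array and was at least 3.92-fold higher (C084R118, fitted log2 change 2.48, adjusted p = 3.99e-07). Collagen alpha-1(I), the main fibrillar collagen of skin and bone, had -0.21, -0.54 and -1.07 at 20 dpf and -3.0, -2.95 and -2.31 at 15 dpf (C106R047, 2.15, SE 0.41, adjusted p = 0.00124). These 2 probes kept their call without each array in turn. With limma on the 6 arrays alone the adjusted p was 0.0246 for laminin subunit beta-4 and 0.0523 for collagen alpha-1(I). Decorin, which coats collagen fibrils, rose by 1.65 (C112R143, adjusted p = 0.00644), but not without replicate 1 of 15 dpf (1.36, adjusted p = 0.0845) or replicate 3 of 20 dpf (1.43, adjusted p = 0.0573). Both collagen alpha-2(V) probes were called, at 1.68 and 1.38, and each lost the call without replicate 1 of 15 dpf (adjusted p = 0.0976 for C054R132 and 0.198 for C024R017) and without replicate 3 of 20 dpf (0.0785 and 0.0746). C054R132 also lost it without each of the other 4 arrays. Without replicate 1 of 15 dpf 3 matrix probes were called. Lumican had the second largest change of the list, 2.31, without passing (C088R001, adjusted p = 0.0951). The cartilage and basement membrane genes collagen alpha-1(II), collagen alpha-2(IV), nidogen-1 and laminin subunit beta-1 changed by -0.36, 0.02, -0.05 and -0.40, and none passed.

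All 8 called muscle probes belonged to 1 gene name. Tropomodulin-4, which caps the pointed ends of actin filaments in skeletal muscle, was called higher on each of its 8 probes, by 1.31 to 2.11. C133R072 had ratios of -2.26, -2.23 and -1.35 at 20 dpf and -4.16, -4.19 and -3.82 at 15 dpf (2.11, SE 0.29, adjusted p = 1.13e-05). Its levels were below that of the pool at both ages. The smallest of the 8 rises, C004R153, lost its call without replicate 3 of 20 dpf (0.96, adjusted p = 0.0842). The other 61 measured muscle probes, for actins, myosins, creatine kinase and further sarcomere genes, changed by -0.81 to 1.35 and none was called.

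Of the remaining lists, 34 liver and plasma probes gave 3 rises, and each of them lost its call without at least 1 array. Prothrombin changed by 1.81 (C079R044, 1.65 without replicate 1 of 15 dpf and 1.46 without replicate 3 of 20 dpf, adjusted p = 0.0867 and 0.124). Fibrinogen beta chain, the clot protein, changed by 1.63 (C013R102, 1.33 without replicate 1 of 15 dpf, adjusted p = 0.108), and coagulation factor VII by 1.44 (C196R087, adjusted p between 0.0677 and 0.291 without replicate 1, 2 or 3 of 15 dpf or replicate 1 or 3 of 20 dpf). Among 52 patterning transcription factors, with a median of -0.08, 2 were called higher, both from the study's list for this step, and 0 of the 33 that met the signal rule at both ages. Of these 2, homeobox protein orthopedia B, a regulator of hypothalamic neurons, rose by 2.40 (C060R099, adjusted p = 8.72e-04). Its ratios were 0.52, 0.67 and 0.23 at 20 dpf and -2.32, -1.67 and -1.81 at 15 dpf. LIM/homeobox protein Lhx9 changed by 1.57 (C028R134, adjusted p = 0.0118), and lost the call without replicate 1 of 15 dpf (adjusted p = 0.0907) or replicate 1 of 20 dpf (adjusted p = 0.10). Of 26 cell cycle probes, inner centromere protein A was called, at 1.64 (C069R119, adjusted p = 0.0182), though not without replicate 3 of 15 dpf, replicate 1 of 20 dpf or replicate 2 of 20 dpf (adjusted p = 0.101, 0.112 and 0.112). The counts for patterning and cell cycle probes thus lie near the share over all described probes, of which 3.41% were called higher. None of 13 signalling probes and none of 85 ribosomal protein probes was called. The ribosomal probes spanned -0.75 to 0.88 with a median of -0.02.

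Further genes with large rises lay outside the lists. B-cell lymphoma/leukemia 11A, a transcription factor that in mammals represses fetal globin and also acts in neurons, had ratios of 1.38, 1.63 and 0.49 at 20 dpf and -1.80, -1.75 and -2.84 at 15 dpf. It was under 500 in signal on the 15 dpf arrays and at least 6.79-fold higher at 20 dpf (C098R002, fitted log2 change 3.29, adjusted p = 3.6e-07). Cytosolic purine 5'-nucleotidase, which dephosphorylates purine nucleotides, had 0.53, 0.47 and 0.89 at 20 dpf and -2.63, -2.22 and -1.82 at 15 dpf (C112R142, 2.85, adjusted p = 3.99e-07), and a second probe rose by 1.89 (C195R070). Both genes kept their calls without each array in turn.

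Cytosolic non-specific dipeptidase, a peptidase, changed by 2.34 (C052R004), with -0.86, -0.50 and 0.81 at 20 dpf and -2.88, -2.58 and -2.11 at 15 dpf, and the call was lost without replicate 3 of 20 dpf (1.85, adjusted p = 0.0651). Tubulin alpha-1 chain changed by 2.03 (C225R012), and was not called without replicate 2 or 3 of 15 dpf or replicate 1 or 2 of 20 dpf (adjusted p between 0.0711 and 0.152). A probe for vitellogenin, the yolk protein precursor, changed by 2.41 and was at least 3.10-fold higher at 20 dpf (C088R103, adjusted p = 0.0442). Its signal was 634.0, 504.0 and 8188 at 20 dpf, and the call was lost without any 1 of the 6 arrays (adjusted p between 0.0528 and 0.252).

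Falls were few. None of the 15 probes called lower kept its call without each array in turn, against 98 of the 240 called higher. Among the falls 9 of 15 lay in spot columns 201 to 266, which held 30.2% of the measured probes and 10.4% of the rises, and where 15 dpf replicate 1 read high. Of the rises, 74.2% lay in columns 1 to 160, which held 53.1% of the measured probes and where that array read low. With the correction for spot column 8 of the 15 falls and all but 6 of the 240 rises were still called. All 15 falls and 240 rises kept their sign, which was nearly fixed in advance because each call needed a 2-fold change. The correction moved the median log2 change of measured probes from -0.28 to -0.02 in columns 201 to 266. In columns 1 to 160 it moved it from 0.15 to 0.07. Only 2 of the described falls stayed at or above 500 in signal on each of the 6 arrays. PiggyBac transposable element-derived protein 4 had ratios of -0.33, -0.54 and -0.11 at 20 dpf and 2.07, 1.01 and 0.45 at 15 dpf (C252R054, log2 change -1.51, SE 0.38, adjusted p = 0.0245), and replicate 1 of 15 dpf was the highest. Without that array the change was -1.06 (adjusted p = 0.311), and without replicate 2 of 15 dpf, replicate 1 of 20 dpf or replicate 2 of 20 dpf the adjusted p was 0.0506, 0.0802 and 0.118. Protein FAM57A had -0.32, -0.59 and 0.08 at 20 dpf and 1.49, 1.05 and 0.67 at 15 dpf (C251R006, -1.35, adjusted p = 0.0149), and was not called without replicate 1 of 15 dpf (-1.14, adjusted p = 0.127) or replicate 1 or 2 of 20 dpf (adjusted p = 0.0631 and 0.112).

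The remaining described falls dimmed below 500 on at least 1 array of 20 dpf. Protein phosphatase 1 regulatory subunit 1B, a phosphatase inhibitor of the brain in mammals, had ratios of -1.15, -0.59 and -2.08 at 20 dpf and 1.23, 0.60 and 0.27 at 15 dpf (C192R090, -1.97, adjusted p = 0.00469). Its adjusted p was 0.0578 without replicate 1 of 15 dpf and 0.0704 without replicate 3 of 20 dpf. IgGFc-binding protein, a mucus protein, had -2.48, -0.91 and -0.81 at 20 dpf and 0.67, 0.56 and 1.18 at 15 dpf (C126R042, -2.21, adjusted p = 0.0029), with an adjusted p of 0.0802 without replicate 1 of 20 dpf. Fermitin family homolog 3, an integrin activator of blood cells, changed by -1.59 (C163R063), and its adjusted p was 0.0531, 0.0824 and 0.0634 without replicates 2 and 3 of 15 dpf and replicate 1 of 20 dpf. Protein spinster homolog 3 changed by -1.43 (C003R140), with adjusted p between 0.101 and 0.203 without replicate 2 or 3 of 15 dpf or replicate 1 or 2 of 20 dpf.

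The neighbouring time points show where this step lies in the course of the probes given here. Their means share the arrays of 15 and 20 dpf with the comparison above and are given as a description. Of the 240 rises, 219 were also higher at 15 dpf than at 10 dpf, and 21 were lower. The median of the 240 was -3.73, -1.94 and -0.11 on days 10, 15 and 20. For the 9 trichohyalin-annotated probes it was -6.66, -1.32 and 0.53. Band 3 (C136R119) averaged -3.58, -4.36 and -4.89 on days 2, 5 and 10, then -3.59 ± 1.10 at 15 dpf and 2.69 ± 0.34 at 20 dpf (SD, n = 3 each). It averaged 1.90 and 0.50 on days 25 and 30, and no later mean was above 0.12. For hemoglobin subunit alpha-D (C062R154) the means on days 10, 15, 20, 25 and 35 were -3.77, -0.01, 1.99, 1.22 and -0.59. Both probes thus had higher means at 15 dpf than at 10 dpf, and the 15 dpf mean of band 3 rests on signals under 500. Both had their highest mean of the 17 time points at 20 dpf. Erythroid 5-aminolevulinate synthase (C013R054) averaged -3.72, -1.97, 0.73, 1.07, 1.28 and -0.17 on days 10, 15, 20, 25, 30 and 35. Its highest mean was that of day 30, with the saturated array missing from the mean of 20 dpf.

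**Figure D5:**
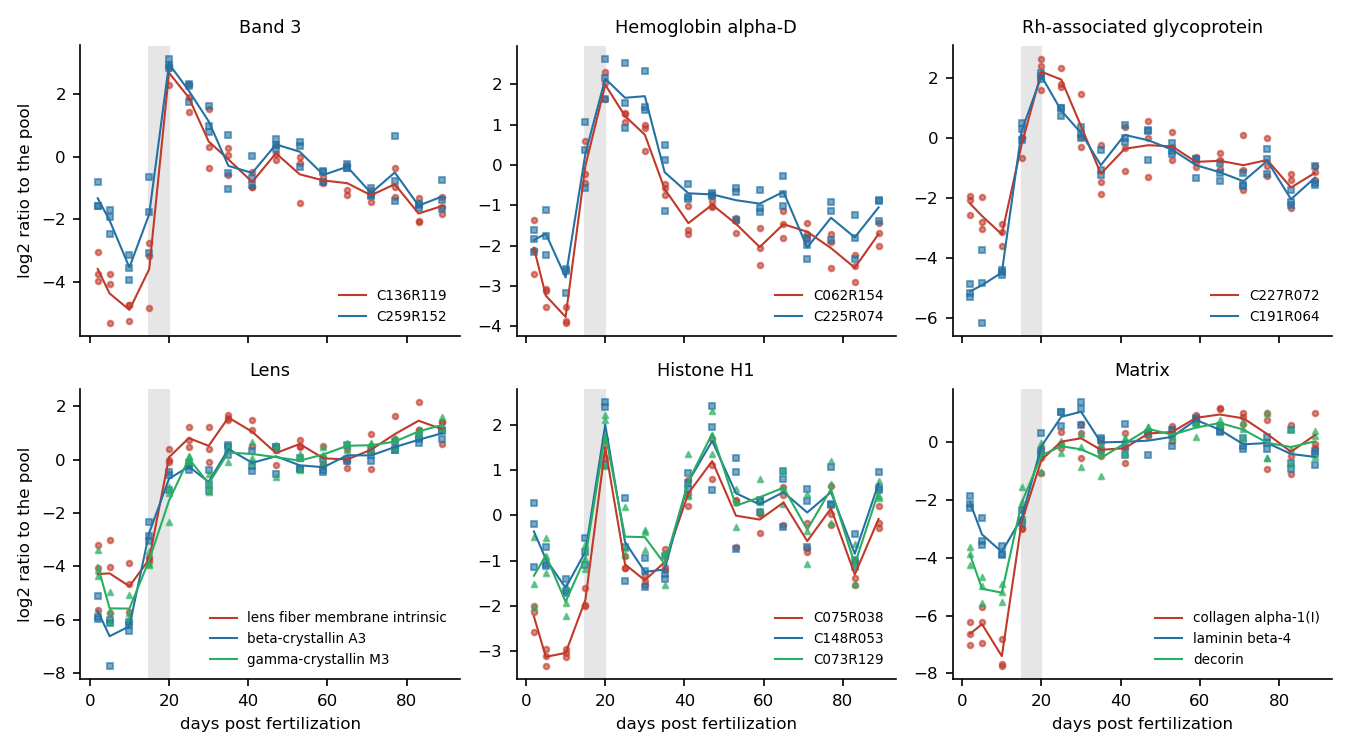
Log2 ratio to the reference pool (y axis) over all 17 time points (x axis, days post fertilization), with a point per individual and a line through the means, for probes of 6 groups of genes. The grey band spans 15 to 20 dpf. Band 3, hemoglobin alpha-D and Rh-associated glycoprotein (upper panels) have their highest means at its right edge, histone H1 drops back at 25 dpf, and the lens and matrix means lie between -0.90 and 1.58 from 25 dpf on.

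Other genes followed other courses. Lens fiber membrane intrinsic protein (C249R030) averaged -4.75, -3.74, 0.10, 0.81 and 1.14 on days 10, 15, 20, 25 and 89, and beta-crystallin A3 (C143R104) -6.25, -2.75, -0.71, -0.26 and 1.0. Collagen alpha-1(I) (C106R047) averaged -7.40, -2.75, -0.60 and 0.02 on days 10, 15, 20 and 25. These 3 probes thus had higher means at 25 dpf than at 20 dpf. Histone H1 (C075R038) behaved otherwise, with means of -3.05, -1.87, 1.5, -1.08, -1.03, 0.49 and 1.20 on days 10, 15, 20, 25, 35, 41 and 47. The level of 20 dpf was thus not kept at 25 dpf, and a second crest came on day 47. PiggyBac transposable element-derived protein 4 (C252R054) averaged 3.07, 1.43, 1.18, -0.33 and -0.18 on days 5, 10, 15, 20 and 25.

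Slides offered a last comparison. Replicate 1 of 20 dpf and replicate 2 of 15 dpf were hybridized on the same slide, and within that slide all 239 rises with a value were higher at 20 dpf, with a median difference of 1.71, and all 15 falls were lower, with a median of -1.72. These arrays also chose the probes, so the counts are a description. Within slide 11 the median change was 1.05 over the measured red cell probes and 1.26 over the lens probes. It was 1.25 over neurons and glia and 0.57 over the matrix genes. Muscle probes had a median of 0.92 there, against 0.29 in the main fit. Liver and plasma probes had 0.25, patterning transcription factors -0.07 and ribosomal proteins 0.0. A high median within this slide was thus also seen in a list with a low fitted median. No median over all measured probes is given for this slide.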

How the data were processed

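Per the file headers, the authors' scanner files hold a background-corrected median signal intensity on a linear scale and a flag for each spot and channel, quantified with ImaGene. The authors also deposited log2 ratios, Lowess-normalized in GeneSpring and centred on each probe's median over the samples, which served as an alternative. They correlated at 0.884 to 0.986 with the centred log ratios of the 6 arrays.

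Signals under 1 were set to 1, and log2 ratios of Cy5 to Cy3 were loess-normalized within arrays with limma 3.58.1 in R 4.3.3, with flagged spots dropped. The difference of 20 minus 15 dpf came from 1 limma model of the 51 arrays, in which each of the 17 ages had its own mean. Tested were the 20916 probes with a value at both ages and an unflagged Cy5 of at least 500 on all 3 arrays of any time point, and p-values were Benjamini-Hochberg adjusted over all of them. No spots were averaged. Where a probe was under 500 on every array of 1 age, bounds used Cy5 levels after loess and quantile scaling between arrays, which dye bias can move because no dyes were swapped. On simulated data of 20916 probes for 20 minus 15 dpf, 144 of 200 changed probes were recovered with 8 false calls. The changes put in were all larger than 2-fold and lay in probes with a value on all 51 arrays. The simulated noise was independent for each value, with no shift by spot column and no effect of slide or array. These rates therefore need not hold for the real arrays. Summaries used Python 3.11.15.

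Named were the 10 largest rises and falls with an unflagged Cy5 from 500 to 60000 on all 6 arrays and no overlap (only 2 described falls met this), the 5 largest rises under 500 on the 15 dpf arrays, and the probes of the gene lists. Other described genes were chosen after their values were seen. The probes and lists were chosen with earlier results of these data known. Descriptions came from the study's supplementary annotation, of which no values were used and 1 file was held in part. Replicates were separate individuals, and their number limits the precision.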

Additional observations from a re-analysis of the deposited data

How the results depend on the processing

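The 118 described probes followed through the alternatives all had a large change in the main fit, and none changed sign. The alternatives reused the same arrays, so a change of sign was unlikely from the start. Listed probes that were not called, such as C217R069 and C071R111, were not among those followed. Leaving out 1 array in turn gave 180 to 262 called probes, of which 85.5 to 96.7% were higher, 425 to 692 at the methods' threshold, and 15 to 16 red cell, 7 to 11 lens, 7 to 9 neuron and glia and 3 to 5 matrix probes. The share of 85.5% came without replicate 3 of 15 dpf, the 7 lens probes without replicate 2 of 20 dpf and the 3 matrix probes without replicate 1 of 15 dpf. With an unflagged signal of 500 required on all 6 arrays, 123 probes were called, 232 at the methods' threshold, and 6 red cell, 6 lens, 3 neuron and glia and 2 matrix probes. With limma on 6 arrays these were 43 probes (100% higher), 8 red cell, 1 lens, 2 neuron and glia and 2 matrix, and with the position correction added, 16 probes (100% higher), 3 red cell, 1 lens, 0 neuron and glia and 0 matrix. Array weights gave 452 probes (88.7% higher), with 14 neuron and glia and 15 matrix probes. Median centring gave 153 probes and 2 matrix probes, and it moved the median of all tested probes to 0.09, against 0.02 after loess. The slide as a fixed block gave 167 probes, with 7 lens, 5 neuron and glia and 3 matrix probes. Without a filter 977 probes passed the methods' threshold. An offset of 50 and adjustment over the measured probes alone each gave 8 matrix probes. The methods' t-test gave 87 probes at their threshold and 0 after Benjamini-Hochberg adjustment, with 0 red cell, 0 lens, 0 neuron and glia and 0 matrix probes and 605 at an unadjusted p under 0.05. Some of these alternatives used fewer probes or fewer arrays, and the cause of the changed counts was not tested. Deposited values, Cy5 alone, flagged spots kept and the slide as a random block kept each count within 1.5 times.

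Replicate numbers name separate individuals, and the labels give no pairing between the ages. The deviations of same-numbered arrays of 20 and 15 dpf correlated at 0.184, -0.124 and 0.307 over 20059 probes. Replicates 1 and 3 of 20 dpf thus correlated best with the same number at 15 dpf, and the value for replicates 3 was the highest of any pair. Replicate 2 of 20 dpf correlated best with replicate 1 of 15 dpf, at 0.249. These correlations do not decide whether same-numbered arrays share an effect, which was not tested. With the replicate block 299 probes were called. With 3 embryos an age, probes under a signal of 500 at both ages were not judged.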

Other observations

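Most called probes carry no description here: 141 of the 255. The largest of their rises was C093R047, with ratios of 0.95 and 0.78 at 20 dpf and -3.43, -3.71 and -2.11 at 15 dpf (log2 change 3.95, adjusted p = 9.75e-08, replicate 3 of 20 dpf saturated). C034R125 rose by 3.47 with 1.07, 1.29 and 0.76 at 20 dpf and -2.49, -2.35 and -2.46 at 15 dpf (adjusted p = 1.83e-11). On days 10, 25 and 89 the means were -5.40, 0.71 and -0.49 for C034R125 and -6.37, 0.90 and -2.38 for C093R047.

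Several described rises belonged to genes of metabolism, innate defence and the cytoskeleton, and were chosen after their values were seen. Betaine--homocysteine S-methyltransferase 1, a liver enzyme that remakes methionine, had -0.51, -1.22 and 0.72 at 20 dpf and -2.31, -2.34 and -3.14 at 15 dpf (C043R104, 2.26, adjusted p = 1.27e-04). Lysozyme g, a bacteriolytic enzyme, rose by 1.49 (C085R031, adjusted p = 0.0017) and on a second probe by 1.32 (C182R106, adjusted p = 0.00596), where the call was lost without replicate 2 of 15 dpf (adjusted p = 0.08) or replicate 3 of 20 dpf (adjusted p = 0.0747). Tropomodulin-2, a relative of tropomodulin-4 that in mammals acts in neurons, had -2.50, -1.97 and -1.36 at 20 dpf and -4.37, -3.85 and -3.90 at 15 dpf (C105R061, 2.10, adjusted p = 5.13e-04). Integrin alpha-8, a receptor for matrix proteins, had 1.91, 1.95 and 2.26 at 20 dpf and 0.35, 0.48 and -0.11 at 15 dpf (C191R135, 1.80, adjusted p = 0.00494). Lysozyme g (C085R031) averaged -3.62, -2.49, -1.0 and 0.67 on days 10, 15, 20 and 89.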
